A study of Mus musculus with 6 samples.

Results

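The erythroid progenitors of mouse bone marrow were taken from single-cell transcriptomes of young and aged mice, sampled after experimental stroke or at steady state. A marrow cell counted as one when its UMIs of Car1 and Klf1 summed to at least 3, Mpo stayed below 10 UMIs per 10000 UMIs, Camp, Ngp and Ltf together below 100 and Pf4 below 5. A UMI is a molecular tag that counts 1 captured transcript. The rule found 1290 cells among 19522 marrow cells with at least 500 UMIs and at most 10% mitochondrial UMIs, out of 28055 barcodes deposited for the whole series. Aged mice with middle cerebral artery occlusion 24 hours earlier gave 144 of these cells, and young mice with the same occlusion gave 98. Aged mice at steady state gave 480, and young mice at steady state gave 568. All mice were wild-type, and each group is 1 library of marrow enriched by flow sorting for Gr1+ and c-kit+ fractions. The labels give no strain, sex, age in months or number of animals, and no sham-operated group was analysed here. Blood libraries of steady-state mice, sorted for CD11b+ cells, a gate that red cell precursors do not pass, held 0 such cells of 5342 in aged mice, which by a limit of 3 counts allows a share of up to 0.0562%, and 0 of 2029 in young mice, which allows up to 0.148%.

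Red cells arise from multipotent progenitors through burst-forming and colony-forming erythroid stages that still divide, before the erythroblasts fill with haemoglobin. The stem and progenitor factor Gata2 gives way to Gata1 and Klf1, erythropoietin acting through its receptor Epor keeps the later stages alive, and Kit signalling supports the earlier ones. Transferrin brings iron in through the receptor encoded by Tfrc, the heme pathway builds the ring that holds it, and the membrane skeleton and blood-group proteins are laid down in parallel. Glucocorticoid hormone, which stress releases, is known to prolong the dividing stage of early erythroid progenitors.

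GATA factors bind the letters AGATAA or TGATAA, and the promoters of 4 erythroid genes are shown because each holds that motif close to the start of transcription. They belong to Klf1 (chr8:84901732-84902031, plus strand), the transcription factor used in the rule, Ermap (chr4:119189946-119190245, minus strand), a blood-group antigen of the red cell membrane, Rhd (chr4:134864286-134864585, plus strand), another blood-group membrane protein, and Cpox (chr16:58669958-58670257, plus strand), an enzyme of heme synthesis whose transcript was lower in aged cells. The windows run from 250 bases before to 50 bases after the start in the RefSeq annotation of GRCm38.p6, are written 5′ to 3′ on the gene's strand, and carry the motif in capitals, read on either strand, so that TTATCA and TTATCT are its reverse complements.
Klf1: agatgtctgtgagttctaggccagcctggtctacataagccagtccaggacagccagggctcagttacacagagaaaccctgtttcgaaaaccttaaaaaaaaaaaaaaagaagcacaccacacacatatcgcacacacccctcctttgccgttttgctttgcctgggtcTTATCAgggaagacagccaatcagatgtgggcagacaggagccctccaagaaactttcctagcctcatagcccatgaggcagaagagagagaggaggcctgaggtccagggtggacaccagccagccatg
Ermap: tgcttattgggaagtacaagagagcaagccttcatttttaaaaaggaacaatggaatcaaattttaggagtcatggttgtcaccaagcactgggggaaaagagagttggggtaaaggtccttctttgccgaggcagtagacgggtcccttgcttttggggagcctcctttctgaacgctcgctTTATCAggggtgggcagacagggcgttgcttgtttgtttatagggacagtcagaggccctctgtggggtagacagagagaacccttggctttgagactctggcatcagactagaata
Rhd: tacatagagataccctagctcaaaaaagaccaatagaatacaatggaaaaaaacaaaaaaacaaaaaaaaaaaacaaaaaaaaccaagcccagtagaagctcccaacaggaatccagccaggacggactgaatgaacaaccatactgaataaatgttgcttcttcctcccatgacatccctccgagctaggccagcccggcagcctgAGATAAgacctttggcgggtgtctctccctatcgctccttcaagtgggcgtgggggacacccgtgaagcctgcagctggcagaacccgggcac
Cpox: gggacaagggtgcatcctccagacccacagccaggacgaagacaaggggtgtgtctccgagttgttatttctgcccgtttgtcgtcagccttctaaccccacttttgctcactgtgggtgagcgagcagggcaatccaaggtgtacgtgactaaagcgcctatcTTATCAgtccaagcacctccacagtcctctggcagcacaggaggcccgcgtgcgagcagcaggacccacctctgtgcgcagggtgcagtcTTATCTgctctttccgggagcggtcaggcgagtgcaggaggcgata
The motif began at base -80 relative to the start in Klf1, -67 in Ermap, -43 in Rhd, and -86 and 4 in Cpox, and in the promoter of Epor (chr9:21963527-21963826) at -54. Of all 32851 RefSeq promoter windows of that length, 18.6% held the motif. Among the leading genes described below it stood in 6 of 18 windows of 17 genes (33.3%), and among the erythroid marker genes in 6 of 12 windows of 10 genes (50%). A match of letters is a description and shows no binding.

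The cells carried the erythroid programme that their markers name, and most held few or no haemoglobin UMIs. Since Car1 and Klf1 chose the cells, the levels of other genes in them are given as descriptions with no test, as CPM, the UMIs of a gene in the summed cells of a library scaled to 1000000 UMIs of those cells. Aqp1, the water channel of the red cell membrane, had 225 CPM in aged stroke cells, 255 in young stroke cells, 354 in aged steady-state cells and 351 in young steady-state cells, against 1.62, 1.64, 9.62 and 6.94 CPM in the other marrow cells of the same libraries. Ermap had 218, 237, 269 and 312 CPM in the erythroid progenitors of those 4 libraries in the same order, and between 0.696 and 3.27 CPM in the other marrow cells. Car2, a carbonic anhydrase of erythroid and other cells, stood highest among the 20 leading genes, with 1572, 2433, 1918 and 2131 CPM, and its smallest log2 ratio over other cells in any library was 3.73 with 20 CPM added to both levels. The other leading genes were Blvrb (biliverdin reductase B), Mt2 (a metallothionein), Gstm5, Tspo2 (an erythroid member of the translocator protein family), Ces2g, C1qtnf12, Gm15915, Rhd, Abcb4, Smim1 (the Vel blood group protein), Gfi1b (a transcriptional repressor of erythroid and megakaryocytic cells), Vamp5, Sdsl, Cox6b2, Mns1, Cpox and Stard10, whose smallest log2 ratio was 2.02. Late genes were at or near 0. Alas2, the erythroid enzyme that starts heme synthesis in erythroblasts, had between 0 and 1.24 CPM, the anion exchanger Slc4a1 had 1 library with 0.339 CPM and 3 at 0, and the theta globins Hbq1a and Hbq1b had no UMI. The defining progenitor markers were therefore present and the erythroblast ones were at or near 0.

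**Figure D1:**
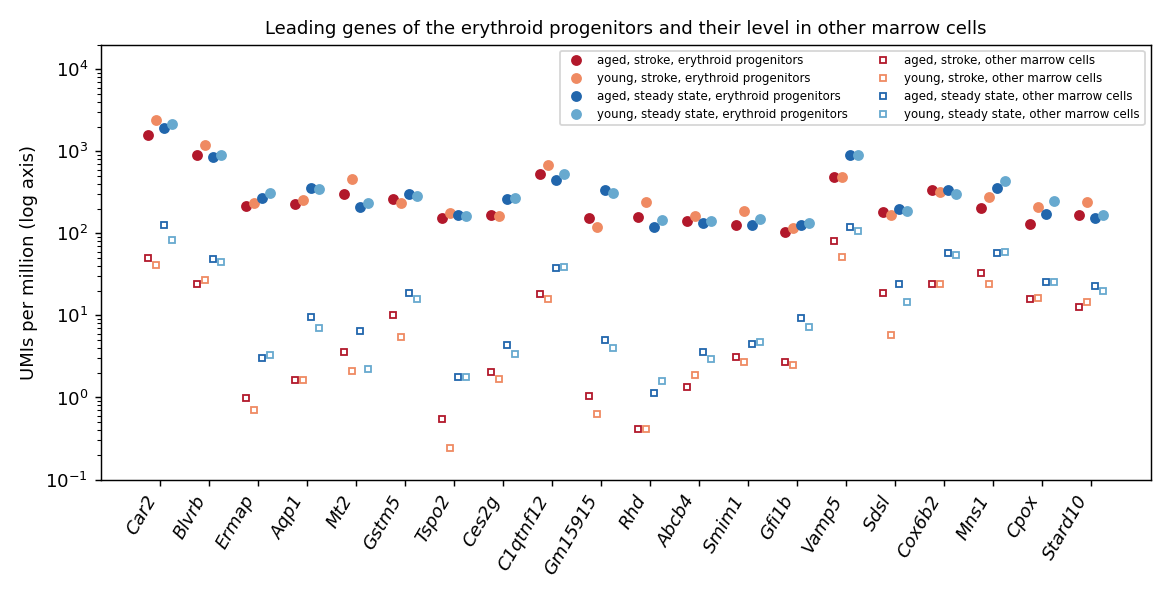
Level of the 20 leading genes in erythroid progenitors (filled circles) and in all other marrow cells (open squares) of each library, in CPM on a log axis. In every library the circles of each gene lie above its squares, with Car2 between 1572 and 2433 in the erythroid progenitors.

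The erythroid progenitors held 2950724, 2065663, 5978374 and 6437613 UMIs in aged stroke, young stroke, aged steady-state and young steady-state marrow, with medians of 13021, 12739, 11247 and 9363.5 UMIs and between 3177.5 and 3535.5 genes per cell. The stroke libraries kept cells of up to 9.95% mitochondrial UMIs and 19 aged and 24 young erythroid progenitors under 2000 UMIs, whereas the steady-state libraries held no cell above 4.99% and no such shallow cell. A doublet score above 0.25 was reached by 0 of these cells in either stroke library, by 17 in aged and by 13 in young steady-state marrow. That cut-off marked 14.95% and 10.1% of simulated doublets in aged and young stroke marrow, against 46.4% and 44.8% at steady state. A count of 0 after stroke therefore does not show that doublets were absent. Of all barcodes, 104 occurred in more than 1 library, and 6 of them belonged to erythroid progenitors. Summed erythroid markers stood at 5570 and 5796 CPM in the aged and young stroke cells and at 7183 and 7037 CPM in the aged and young steady-state cells, against 40.4, 41.1, 76.2 and 79.6 CPM in the granule-rich neutrophil lineage. Summed neutrophil markers had 915 and 596 CPM in the aged and young stroke cells, against 4812 and 6822 CPM in the aged and young steady-state cells. Megakaryocyte markers summed to between 33.7 and 48.8 CPM, with 5 or 6 of the 11 genes at 0 in each library. Basophil and mast cell markers summed to 1077 CPM in aged stroke cells, against 43.1 CPM in young stroke cells, and to 69.3 CPM in aged and 50.3 CPM in young steady-state cells. In aged stroke marrow, 2 cells carried 2476 of the 2518 UMIs of the basophil proteases Prss34 and Mcpt8.

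The rule's UMI floor passes some weakly erythroid cells. The 53 cells with exactly 3 UMIs of Car1 and Klf1 had 32.2 CPM of Ermap, 94.2 CPM of Aqp1 and 1402 CPM of the neutrophil alarmin gene S100a8. The 128 cells just below it, with 2 UMIs, had 17.2 CPM of Ermap, 54.0 CPM of Aqp1 and 9857 CPM of S100a8. Over all 1290 cells these values were 273, 320 and 1524 CPM.

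Erythroid progenitors made up 5.42% of the kept marrow cells in aged stroke marrow (95% exact binomial interval 4.59% to 6.35%) and 4.33% in young stroke marrow (3.53% to 5.25%). At steady state they made up 7.51% in aged (6.88% to 8.19%) and 6.92% in young marrow (6.38% to 7.49%). The intervals of aged and young marrow overlapped in both settings. Both stroke shares lay below both steady-state shares. These intervals cover counting error only, the sort for Gr1+ and c-kit+ cells sets what share any type can take, and with 1 library a group no test was made. Once every cell was thinned to 2000 UMIs, the shares were 3.64% and 3.38% in aged and young stroke marrow and 5.86% and 5.62% in aged and young steady-state marrow.

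Within the erythroid progenitors, cells ranged from an early state with stem and progenitor transcripts to a late state with blood-group and heme transcripts. Of the UMIs of 13 genes, the early share was the part that came from Plac8, Sox4, Vim, Gata2, Angpt1, Cdk6 and Apoe rather than from Car2, Blvrb, C1qtnf12, Rhd, Tmem14c and Ermap. These genes were chosen after the data were seen, so the split is a range and no cell type. Cells with a share above 0.5 are called early here. Of the scored cells, 66 of 124 were early in aged stroke marrow (53.2%, exact binomial interval 44.1% to 62.2%), 34 of 74 in young stroke marrow (45.9%, 34.3% to 57.9%), 259 of 480 in aged steady-state marrow (54.0%, 49.4% to 58.5%) and 302 of 568 in young steady-state marrow (53.2%, 49.0% to 57.3%). All 4 intervals overlapped. Between shares of 0.4 and 0.6 lay 12, 5, 65 and 75 cells of these libraries. Late cells were the deeper ones, with medians of 34262, 41358, 17289 and 15796 UMIs, against 11732, 13019, 7191 and 5983 UMIs in early cells.

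Genes that did not define the split followed it. Epor had 76.3, 78.6, 86.0 and 106 CPM in late cells of the aged stroke, young stroke, aged steady-state and young steady-state libraries, against 32.2, 36.4, 56.2 and 48.1 CPM in early cells. Kit, the stem cell factor receptor, was lower in late than in early cells of each library, with 140, 156, 135 and 130 CPM against 281, 253, 231 and 219 CPM. Tfrc had 98.9, 140, 116 and 194 CPM in late cells and 17.1, 28.3, 50.5 and 57.8 CPM in early cells. These are descriptions of the same cells that were split, with no test.

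**Figure D2:**
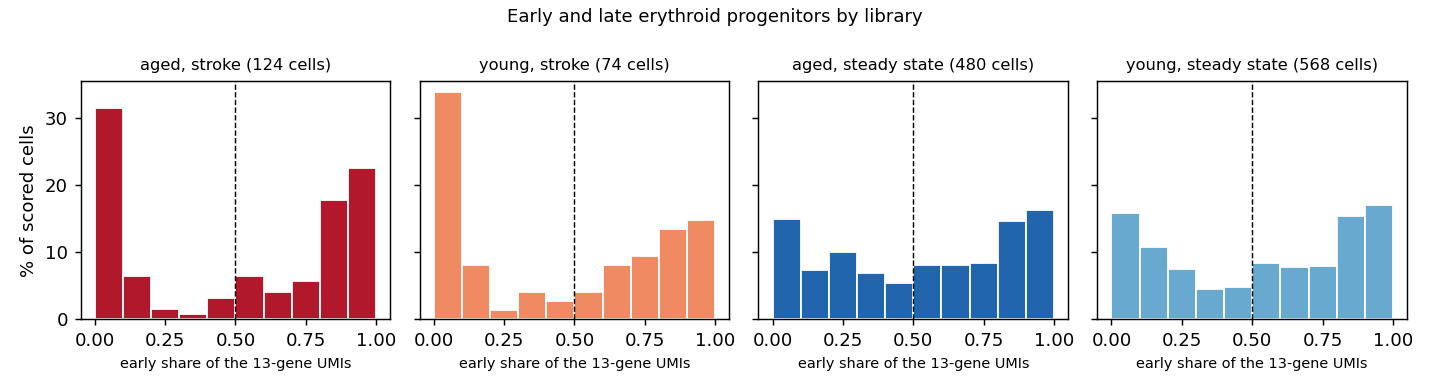
Histogram of the early share in each library, as a percentage of its scored erythroid progenitors of at least 2000 UMIs, with the dashed line at 0.5. Cells pile up at both ends in all 4 libraries, with 53.2% early in aged stroke, 45.9% in young stroke, 54.0% in aged and 53.2% in young steady-state marrow.

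Age was compared in stroke and in steady-state marrow at once. Aged erythroid progenitors had more transcripts of the small membrane protein gene Ifitm1, of Ctla2a, which encodes a protein that resembles the pro-region of a cathepsin, and of the tetraspanin gene Cd63. They had fewer of the transferrin receptor Tfrc, the heme enzyme Cpox, the protease cathepsin E (Ctse), the linker histone Hist1h1b and 4 adult globin genes. The test was edgeR's quasi-likelihood fit of 4 summed libraries with age and stroke as terms, which leaves 1 residual degree of freedom, so that it asks whether the age difference recurs in both settings and says nothing of the spread between animals. It called 15 of 11289 genes higher in aged cells (0.133%) and 8 lower (0.0709%) at a Benjamini-Hochberg adjusted p below 0.05, and 741 genes had an unadjusted p below 0.05. Within single pairs of libraries, with no test, 99 of 11030 genes were at least 2-fold higher (0.898%) and 61 at least 2-fold lower (0.553%) in aged than in young steady-state cells. After stroke, 177 of 8451 genes were at least 2-fold higher (2.09%) and 104 lower (1.23%) in aged cells.

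Ifitm1 had 2076 CPM in aged against 765 CPM in young cells after stroke, and 348 CPM in aged against 203 CPM in young cells at steady state. Aged cells lay above young ones in both settings, and the fitted log2 difference was 1.14 with an SE of 0.12 (adjusted p = 0.000637), the form in which fitted differences are given from here on. Of aged cells 71.5% after stroke and 48.8% at steady state carried an Ifitm1 UMI, against 46.9% and 42.8% of young cells, and with each cell thinned to 2000 UMIs 62.4% and 30.8% of aged cells did, against 41.9% and 26.4% of young cells. The neutrophil lineage, set beside them as background, had thinned shares of 22.6% and 7.74% in aged and 18.6% and 5.28% in young marrow, below the erythroid progenitors of the same library in each case. Kit+ Mpo+ progenitors, the granulocyte and monocyte precursors described below, had 63.1% and 22.3% in aged and 47.9% and 17.6% in young marrow. These shares lay above the erythroid ones after stroke and below them at steady state. Ctla2a had 409 against 180 CPM in aged and young stroke cells and 127 against 88.9 CPM in aged and young steady-state cells, a log2 difference of 0.87 ± 0.13 (adjusted p = 0.0141). Cd63 had 118 against 57.6 CPM in aged and young stroke cells and 125 against 82.8 CPM in aged and young steady-state cells, 0.79 ± 0.13 higher in aged cells (adjusted p = 0.0207). Without cells holding UMIs of the basophil proteases Prss34 or Mcpt8, the fitted difference of Cd63 was 0.55. With each cell thinned to 2000 UMIs, 20% of aged stroke and 20.2% of aged steady-state cells carried a Cd63 UMI. In young cells these shares were 17.6% and 18.1%.

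Tfrc had 71.2 CPM in aged against 112 CPM in young stroke cells, and 92.8 CPM in aged against 150 CPM in young steady-state cells. Aged cells were lower in both settings, by -0.66 ± 0.11 (adjusted p = 0.0207). Cpox, which makes protoporphyrinogen IX from coproporphyrinogen III, had 130 against 208 CPM in aged and young stroke cells and 172 against 245 CPM in aged and young steady-state cells, a log2 difference of -0.57 ± 0.09 (adjusted p = 0.0207). Ctse had 140 against 210 CPM and 71.1 against 107 CPM in aged and young cells of the same settings (-0.57 ± 0.10, adjusted p = 0.0308). Hist1h1b, a histone made in S phase, had 591 against 900 CPM in aged and young stroke cells and 441 against 598 CPM in aged and young steady-state cells (-0.51 ± 0.08, adjusted p = 0.0139).

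**Figure D3:**
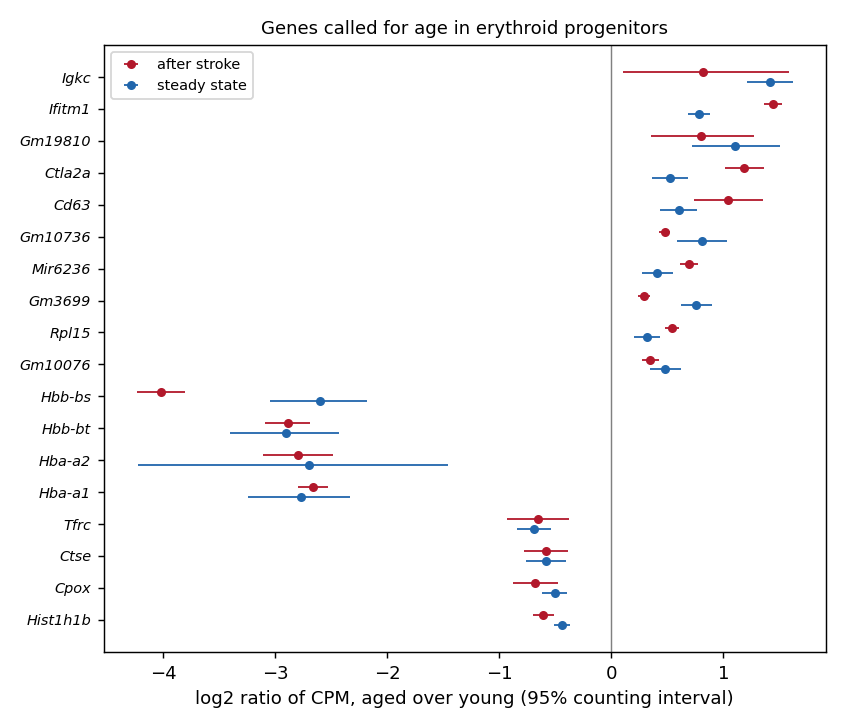
Log2 ratio of CPM, aged over young, for the genes named for age, after stroke (red, above) and at steady state (blue, below), with 95% counting intervals. Each gene lies on the same side of 0 in both settings, as the rule for naming it asks, with the globins furthest to the left with Hbb-bs at -4.02 after stroke and -2.60 at steady state.

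Among the genes named for age the globins had the largest differences, and these rested on few cells. The 4 tested globin genes summed with the rest of the haemoglobin list to 363 CPM in aged against 3041 CPM in young stroke cells, and to 24.6 CPM in aged against 165 CPM in young steady-state cells. Hba-a1 (alpha globin) had 181 against 1149 CPM in aged and young stroke cells and 7.86 against 53.7 CPM in aged and young steady-state cells (-2.66 ± 0.10, adjusted p = 4.46e-09), and Hbb-bs (beta globin) had 64.4 against 1042 CPM and 8.87 against 53.7 CPM (-3.57 ± 0.20, adjusted p = 4.44e-07). The 3 richest cells held 64.9% of the haemoglobin UMIs in aged and 81.4% in young stroke cells, and 39.5% in aged and 49.9% in young steady-state cells. Without those 3 cells a library, the sums were 127 CPM in aged against 567 CPM in young stroke cells, and 14.9 CPM in aged against 82.8 CPM in young steady-state cells. Without the 5 cells a library richest in haemoglobin, the fitted difference was -1.93 for Hba-a1 and -1.24 for Hbb-bs. In early cells alone that of Hbb-bs was -0.06. Cells with at least 10 haemoglobin UMIs numbered 14 of 144 in aged against 15 of 98 in young stroke marrow, and 1 of 480 in aged against 14 of 568 in young steady-state marrow. The neutrophil lineage had between 3.27 and 8.23 CPM, so that aged steady-state cells stood closest to that level.

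The remaining genes called higher in aged cells were of other kinds. Igkc, an immunoglobulin light chain, had 19.7 against 11.1 CPM in aged and young stroke cells and 117 against 44.0 CPM in aged and young steady-state cells (1.31 ± 0.15, adjusted p = 0.00116), and 1 cell held 55.3% of its UMIs in aged steady-state marrow. With a floor of 5 UMIs for Car1 and Klf1 its difference was 0.41 (adjusted p = 0.72), and in early cells 0.33 (adjusted p = 1). Gm19810, Gm10736, Gm3699 and Gm10076 are unnamed pseudogenes or noncoding models, and they passed with Mir6236, Rpl15, Ppia and Gm3511, with log2 differences between 0.41 (Gm3511) and 0.98 (Gm19810). Rows of this kind can share reads with near-identical copies, and their levels are uncertain. Below the level at which genes were named, Ly6a, the Sca-1 antigen of stem cells, was higher by 4.10 ± 0.61 (adjusted p = 0.0139) from 16 against 0 UMIs in aged and young stroke cells and 55 against 4 UMIs in aged and young steady-state cells, and 1 cell held 35 of the 55. Ms4a2, a basophil and mast cell receptor chain, had 116 against 17 and 78 against 28 UMIs in aged and young cells of those settings, and 2 cells held 80 of the 116. Under other choices of processing or cells, Ly6a was tested but not called in 3 fits, and Ms4a2 in 4. Tnfsf13os completed the list, with 16.6 against 11.1 CPM after stroke and 33.5 against 12.4 CPM at steady state in aged and young cells. Those 3, with Ppia and Gm3511, lie outside the rule for named genes and were picked after their values were seen.

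Kit+ Mpo+ progenitors, the granulocyte and monocyte precursors of the same libraries (165 and 55 cells in aged and young stroke marrow, 1092 and 1425 in aged and young steady-state marrow), served to ask whether the age differences were larger in erythroid cells. A fit of 8 sums was added after the data were seen. Its sums come from the same 4 libraries, so its p-values too say nothing of the spread between animals. It called 48 of 13004 age differences larger in erythroid cells (0.369%) and 40 smaller or more negative (0.308%). Ifitm1 was among the first, since its aged-over-young difference was 0.54 larger in erythroid cells (adjusted p = 3.73e-07), yet it was higher in aged Kit+ Mpo+ progenitors too, at 1023 against 625 CPM after stroke and 156 against 113 CPM at steady state. The differences of Ctla2a and Cd63 were 0.82 and 0.74 larger (adjusted p = 6.76e-06 and 5.28e-07), and in Kit+ Mpo+ progenitors Ctla2a had 57.2 against 69.7 CPM in aged and young stroke marrow and 64.5 against 56.5 CPM in aged and young steady-state marrow. Cpox (-0.54, adjusted p = 0.0493) and Hist1h1b (-0.54, adjusted p = 2.04e-05) were lower with age in erythroid cells by more than in Kit+ Mpo+ progenitors, whereas the differences for Tfrc (-0.50, adjusted p = 0.0515) and Ctse (-0.20, adjusted p = 1) did not pass.

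The age differences were then taken within early and within late cells. Ifitm1 was higher in aged cells on both sides. In early cells it had 5128 against 2709 CPM after stroke and 848 against 550 CPM at steady state (aged against young, log2 0.77 ± 0.09, adjusted p = 4.08e-07), and in late cells 484 against 156 CPM and 74.3 against 37.4 CPM (1.42 ± 0.14, adjusted p = 0.000111). Ctla2a passed in late cells, with 72.1 against 18.2 CPM and 19.9 against 9.17 CPM (1.61 ± 0.23, adjusted p = 0.00634), and in early cells its difference was 0.48 ± 0.12 (adjusted p = 0.0674). Cd63 passed in late cells (0.89 ± 0.13, adjusted p = 0.0107) and had a difference of 0.43 ± 0.15 in early cells (adjusted p = 0.664). Tfrc in late cells had 98.9 against 140 CPM after stroke and 116 against 194 CPM at steady state (-0.60 ± 0.11, adjusted p = 0.032), and Cpox 180 against 269 CPM and 230 against 324 CPM (-0.48 ± 0.09, adjusted p = 0.0352). In early cells both were at lower levels and did not pass, with differences of -0.30 ± 0.22 for Tfrc and -0.09 ± 0.20 for Cpox. Ctse and Hist1h1b passed on neither side, with differences of -0.47 ± 0.10 (adjusted p = 0.0824) and -0.39 ± 0.08 (adjusted p = 0.0707) in late cells and of -0.42 ± 0.21 and -0.09 ± 0.19 in early cells. Whether the early and late differences differ from each other was not tested. Of the 7 genes outside the globins described first, Ifitm1, Tfrc, Cpox and Ctse were not called by DESeq2's Wald test (adjusted p between 0.0991 and 0.211), and Ctla2a, Cd63, Tfrc, Cpox and Ctse were not called with cells thinned to 2000 UMIs. With a floor of 2 UMIs for Car1 and Klf1, Cd63, Tfrc, Cpox, Ctse and Hist1h1b were not called (adjusted p between 0.0526 and 0.0938), and Hist1h1b was not called without cells holding Prss34 or Mcpt8 UMIs (adjusted p = 0.095).

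**Figure D4:**
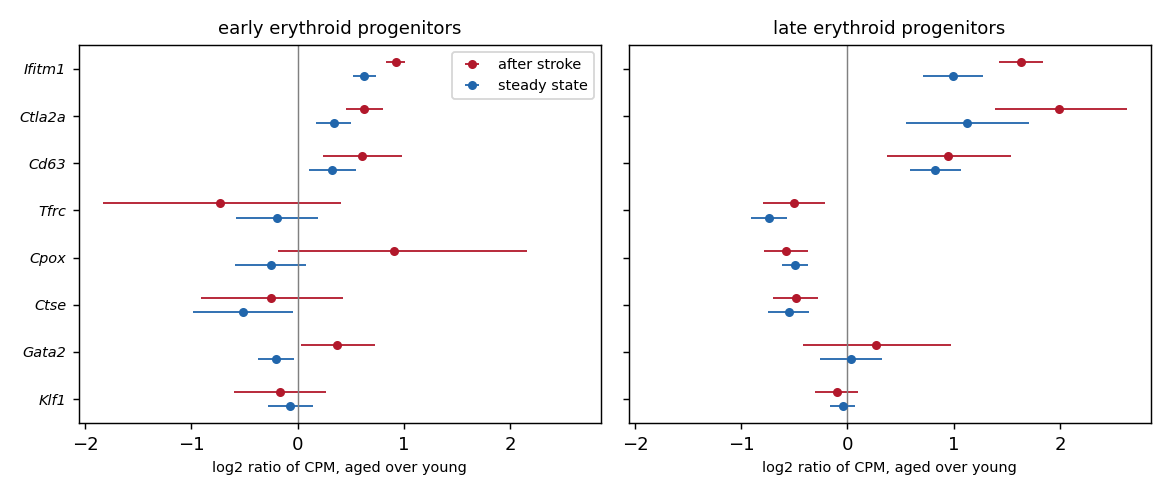
Log2 ratio of CPM, aged over young, in early (left) and late (right) erythroid progenitors, after stroke (red, above) and at steady state (blue, below), with 95% counting intervals. Ifitm1, Ctla2a and Cd63 lie right of 0 in all 4 rows, and Tfrc, Cpox and Ctse lie left of 0 in late cells with counting intervals that leave out 0, although Ctse did not pass the test there (adjusted p = 0.0824), while most of their intervals in early cells hold 0.

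By role, few erythroid genes passed the age test, and most of those of heme synthesis and the membrane had values below 0. The gene lists here and below were chosen with earlier results of these data known, so counts over them are descriptions. Of 11 tested heme genes 1 was called lower (Cpox) and 0 higher, against 0.0709% and 0.133% of all genes, the median log2 difference was -0.36 against -0.00 over all genes, and 10 of the 11 lay below 0. The one above 0 was Alas1, the housekeeping first enzyme. Tmem14c, a mitochondrial porphyrin transporter, had 479 against 724 CPM in aged and young stroke cells and 419 against 475 CPM in aged and young steady-state cells (-0.37 ± 0.09, adjusted p = 0.188). The heme median was -0.65 in the stroke pair, -0.19 in the steady-state pair, -0.24 in late cells and -0.10 in early cells, and 0.07 in Kit+ Mpo+ progenitors. Of 17 membrane and cytoskeleton genes 0 passed in either direction by the edgeR fit or the Wald test and 15 lay below 0, with a median of -0.28. With DESeq2's size factors, with no filter on low counts, and without cells of high doublet score, edgeR called 4 lower in each. Over all genes, those settings called 52 of 11289, 61 of 19663 and 57 of 11177 lower. At an unadjusted p below 0.05, 0 were higher and 6 lower, against 741 of all 11289 genes in both directions together. Sptb (beta spectrin) had 15.9 against 35.8 CPM in aged and young stroke cells and 9.53 against 17.1 CPM in aged and young steady-state cells (-0.97 ± 0.20, adjusted p = 0.0781). Of 14 iron genes 1 was lower (Tfrc) and 0 higher, with a median of -0.16. Fth1, the ferritin heavy chain, had 2872 against 3826 CPM and 2954 against 3307 CPM (-0.27 ± 0.07, adjusted p = 0.188), and Ftl1, the light chain, differed by 0.40 ± 0.08 (adjusted p = 0.103).

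The regulators of the lineage stayed close to 0 with age. None of 15 erythroid transcription factors passed in either direction by edgeR or by DESeq2's Wald test, with a median of -0.09, and 0 were higher and 2 lower at an unadjusted p below 0.05. Of all 11289 genes tested, 741 had such a p in both directions together, the share to set beside each such count below. Klf1, which the rule used, had 198 against 221 CPM in aged and young stroke cells and 243 against 255 CPM in aged and young steady-state cells, and Gata1 had 86.8 against 101 CPM and 146 against 146 CPM (-0.07 ± 0.11, adjusted p = 0.949). Tal1, a partner of Gata1, had 59.98 against 72.6 CPM and 108 against 138 CPM (-0.32 ± 0.11, adjusted p = 0.536). None of 9 tested genes of erythropoietin and Kit signalling passed in edgeR's fit, with a median of 0.00 and 1 higher and 0 lower at an unadjusted p below 0.05. Epor had 61.7 against 68.7 CPM in aged and young stroke cells and 75.4 against 87.3 CPM in aged and young steady-state cells (-0.18 ± 0.12, adjusted p = 0.869), and Kit 188 against 179 CPM and 169 against 159 CPM (0.10 ± 0.09, adjusted p = 0.925). Mitosis genes had a median of -0.21 and S phase genes of -0.19, with 0 of 20 called in either direction in each list by the edgeR fit or the Wald test. With DESeq2's size factors in edgeR, 3 mitosis and 2 S phase genes were called lower, against 52 lower of all 11289 genes. At an unadjusted p below 0.05, 0 mitosis genes were higher and 10 lower, and 0 and 4 of the S phase genes. These counts stand beside the same 741 of 11289 genes. A p above the threshold does not show that these genes were alike.

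Stroke was compared across both ages, and here the contrast of the condition cannot be told apart from that of the libraries. The fit called 1859 of 11289 genes higher (16.5%) and 1266 lower (11.2%) after stroke, and 4394 had an unadjusted p below 0.05. Within aged marrow 478 of 10291 genes were at least 2-fold higher (4.64%) and 2173 lower (21.1%) in CPM, and within young marrow 444 of 10152 were higher (4.37%) and 2280 lower (22.5%). The median log2 CPM ratio of all genes was -0.58 in aged and -0.56 in young cells, and TMM scaling, which the fit uses, brought it to -0.08 and -0.10, so that fitted differences lie about that much above the CPM ratios. With TMM-scaled totals, 782 genes were at least 2-fold higher and 669 lower in aged marrow, and 739 higher and 865 lower in young marrow, so the excess of lower genes depends on the scaling. Trnp1, a nuclear regulator of proliferation, had 120 and 122 UMIs in aged and young stroke cells and 0 in steady-state cells, and no barcode of the steady-state marrow or blood libraries held 1. Ftl1 had 724 and 578 CPM in aged and young stroke cells against 67.7 and 49.7 CPM in aged and young steady-state cells, and 866 and 669 CPM against 87.1 and 54.5 CPM in Kit+ Mpo+ progenitors. The steady-state blood libraries had 3279 CPM of Ftl1 in aged and 3627 CPM in young mice over all barcodes, and 1335 and 586 CPM of the pseudogene Gm10736, which had 3265 and 2347 CPM in aged and young stroke cells against 72.6 and 41.5 CPM in steady-state ones.

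The largest called falls after stroke were granulocyte and monocyte genes. S100a9 had 368 and 248 CPM in aged and young stroke cells against 2143 and 3130 CPM in aged and young steady-state cells (-2.52 ± 0.18, adjusted p = 9.59e-08). Retnlg, Lyz2, Mmp8, Fn1, Ly6c2, Mmp9, Ltf, Elane and the immunoglobulin gene Ighm fell as well, between -2.52 (Elane) and -3.87 (Retnlg). With a floor of 2 UMIs for Car1 and Klf1, the direction of Fn1 reversed. Ltf is capped by the rule in the cells chosen, so its value is a description. The part of free RNA from other cells in these falls was not tested. Besides the globins and Trnp1, the largest rises were of Gm14173, Gm10736, Rpl6l, Tpt1-ps3, Atp5g2, Hist1h3b and Hist1h2ai, between 4.85 (Hist1h2ai) and 9.68 (Gm14173), most of them pseudogenes or histone genes.

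Most of the tested genes that respond to glucocorticoid hormone were higher in erythroid progenitors after stroke, at both ages and more so than in Kit+ Mpo+ progenitors. Of 9 tested genes of this list 6 were called higher and 1 lower, against 16.5% and 11.2% of all genes, with a median of 1.09 against 0.21 in Kit+ Mpo+ progenitors. The list was chosen with earlier results of these data known, so these counts are a description and no independent support. Ddit4, a stress-induced inhibitor of mTOR signalling, had 29.1 and 35.3 CPM in aged and young stroke cells against 3.01 and 5.13 CPM in aged and young steady-state cells (3.54 ± 0.25, adjusted p = 8.1e-08). Both stroke libraries lay above both steady-state ones. The circadian gene Per1 had 27.5 and 26.1 CPM in aged and young stroke cells against 7.03 and 4.50 CPM in steady-state ones (2.77 ± 0.25, adjusted p = 1.04e-06), and Tsc22d3, which encodes the leucine zipper protein GILZ, had 75.6 and 64.4 CPM against 26.4 and 23.1 CPM (2.05 ± 0.13, adjusted p = 3.48e-08). Zfp36l2, an RNA-binding protein that favours self-renewal of early erythroid progenitors in mice, had 275 and 248 CPM against 96.5 and 122 CPM (1.83 ± 0.12, adjusted p = 2.95e-08). Txnip had 295 and 272 CPM against 181 and 211 CPM (1.09 ± 0.10, adjusted p = 1.32e-06), and Fkbp5, a chaperone that binds the receptor, had 38.0 and 42.6 CPM against 31.8 and 25.8 CPM (1.03 ± 0.16, adjusted p = 0.000249). Nr3c1, the receptor itself, had 40.0 and 51.8 CPM in aged and young stroke cells against 109 and 106 CPM in aged and young steady-state cells (-0.69 ± 0.13, adjusted p = 0.00169). Klf9 (-0.07 ± 0.16) and Sgk1 (0.88 ± 0.60) did not pass, and Cdkn1c was too low to test.

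The difference from Kit+ Mpo+ progenitors passed for those 6 genes, against 6.99% of 13004 genes with a larger and 12% with a smaller or more negative stroke difference in erythroid cells. It was 2.49 for Ddit4 (adjusted p = 5.22e-06), 1.93 for Per1 (adjusted p = 4.41e-05), 1.79 for Tsc22d3 (adjusted p = 9.61e-13), 1.24 for Zfp36l2 (adjusted p = 2.40e-17) and 0.79 for Fkbp5 (adjusted p = 0.000701), and Txnip passed with an adjusted p of 3.22e-11. Kit+ Mpo+ progenitors had medians of 47663 and 48505 UMIs in aged and young stroke marrow, against 15958 and 11992 UMIs at steady state. The part of this change in depth in the differences was not tested. In Kit+ Mpo+ progenitors Tsc22d3 had 15.8 and 30.6 CPM in aged and young stroke marrow against 24.7 and 22.7 CPM in aged and young steady-state marrow. In early cells taken alone, 1029 of 9577 genes were called higher after stroke, and in late cells 1661 of 9878. All 6 genes passed in both, with Ddit4 at 3.95 ± 0.29 in early cells (adjusted p = 4.88e-14) and 3.16 ± 0.38 in late cells (adjusted p = 1.76e-05). Early cells had more of it, 59.3 and 91.1 CPM after stroke in aged and young marrow against 4.72 and 9.15 CPM at steady state, and late cells 14.2 and 18.2 CPM against 2.07 and 3.21 CPM. With every cell thinned to 2000 UMIs, 46.4% and 50% of aged and young stroke cells carried a Zfp36l2 UMI, against 20.6% and 28.9% of aged and young steady-state cells, and the neutrophil lineage, taken as background, had between 6.02% and 7.82%. Without thinning these shares in erythroid cells were 81.9% and 72.4% after stroke, against 65.8% and 72.4% at steady state. Tsc22d3 was carried by 18.4% and 18.9% of thinned aged and young stroke cells, against 5.62% and 5.81% of steady-state ones. The neutrophil lineage stood at 14.2% and 16.9% after stroke against 9.96% and 8.89% at steady state, above the erythroid shares at steady state, whereas Kit+ Mpo+ progenitors had between 4.49% and 6.25%. Txnip was carried by 52% and 37.8% of thinned aged and young stroke erythroid cells, against 35.8% and 40.0% at steady state, so it was not higher in young cells. Fkbp5 had 7.2% and 6.76% after stroke against 6.25% and 3.87%. With erythroid cells thinned, the fit called 4 of 7 tested genes of this list higher and 0 lower, against 501 higher and 153 lower of all 6858 genes.

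**Figure D5:**
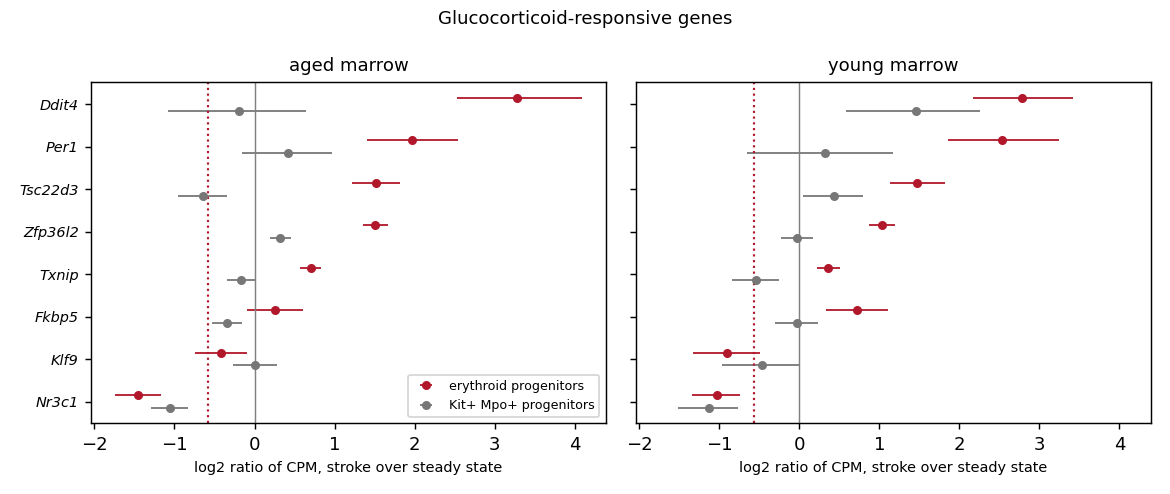
Log2 ratio of CPM, stroke over steady state, for 8 glucocorticoid-responsive genes in erythroid progenitors (red) and Kit+ Mpo+ progenitors (grey), in aged marrow (left) and young marrow (right), with 95% counting intervals. The dotted line is the median of all genes in erythroid progenitors (-0.58 aged, -0.56 young), and the upper 6 genes lie right of it and of 0 in red, with the interval of Fkbp5 reaching 0 in aged marrow.

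Heme, iron and membrane genes moved less evenly with stroke, and partly only relative to the falling median. Of 11 heme genes 9 were called higher and 0 lower, against 16.5% and 11.2% of all genes, with a median of 0.67, but in CPM the median ratio was 0.01 in aged and 0.24 in young cells. Urod, a decarboxylase of the pathway, had 156 and 180 CPM in aged and young stroke cells against 166 and 160 CPM in aged and young steady-state cells, so that its fitted 0.59 ± 0.10 (adjusted p = 0.000439) was -0.09 in CPM in aged cells. Of 17 membrane genes 5 were higher and 0 lower. Rhag, the Rh-associated glycoprotein, had 117 and 109 CPM in aged and young stroke cells against 45.5 and 71.9 CPM in aged and young steady-state cells (1.53 ± 0.16, adjusted p = 5.29e-06), Rhd 160 and 239 CPM against 121 and 147 CPM (1.11 ± 0.10, adjusted p = 1.02e-06) and Sptb 15.9 and 35.8 CPM against 9.53 and 17.1 CPM (1.48 ± 0.20, adjusted p = 8.08e-05). Cd47 was called higher too, but its 0.27 ± 0.07 (adjusted p = 0.0156) was -0.27 in CPM in aged and -0.30 in young cells. Of 14 iron genes 7 were higher and 1 lower, with Ftl1 furthest at 4.03 ± 0.09, and Ncoa4, the ferritin autophagy receptor, had 8.81 and 9.20 CPM against 2.17 and 2.80 CPM (2.41 ± 0.40, adjusted p = 0.000504). The 4 globins were all higher, and their levels rest on the few cells given above.

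Of the 15 erythroid transcription factors 3 were called higher and 5 lower after stroke. These stand beside 16.5% and 11.2% of all genes, so the share called higher is near that of all genes, and Klf1, one of the 3, was used by the rule and supports nothing here. The 3 higher ones, Klf1 (0.30 ± 0.09), Gfi1b (0.30 ± 0.10) and Zfpm1 (0.28 ± 0.09), turned to -0.29, -0.31 and -0.33 in CPM in aged cells and to -0.21, -0.21 and -0.22 in young cells. The 5 lower ones, Tal1, Nfe2, Lmo2, Klf3 and Bcl11a, were lower on both scales. DESeq2's Wald test called 0 of the 15, against 773 higher and 178 lower of all 19663 genes. Nfe2 had 59.6 and 52.3 CPM in aged and young stroke cells against 120 and 111 CPM in aged and young steady-state cells (-0.49 ± 0.12, adjusted p = 0.00764), and Bcl11a, the repressor of fetal globin, had 149 and 159 CPM against 268 and 315 CPM (-0.36 ± 0.09, adjusted p = 0.0103). Kit had 188 and 179 CPM in aged and young stroke cells against 169 and 159 CPM in steady-state ones (0.72 ± 0.09, adjusted p = 4.05e-05), and it was not compared with Kit+ Mpo+ progenitors, which were selected on Kit. Epor had 61.7 and 68.7 CPM against 75.4 and 87.3 CPM (0.24 ± 0.12, adjusted p = 0.161), and Pim1, a kinase downstream of Stat5, was the other called gene of this list of 9 (1.04 ± 0.14, adjusted p = 8.57e-05).

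Mitosis genes were mostly lower after stroke, whereas S phase genes had calls in both directions over all cells. Of 20 mitosis genes 14 were called lower and 1 higher, against 11.2% and 16.5% of all genes, with a median of -0.54, and -0.40 in Kit+ Mpo+ progenitors. Of 20 S phase genes 4 were called higher and 2 lower, near those shares of all genes, with a median of -0.10. Without the 5 cells a library richest in haemoglobin, 2 were higher and 8 lower, against 1915 higher and 1392 lower of all 11197 genes. Mki67, the proliferation marker, had 152 and 206 CPM in aged and young stroke cells against 500.5 and 503 CPM in aged and young steady-state cells (-0.95 ± 0.10, adjusted p = 5.62e-06). In early cells it had 77.4 and 48.6 CPM against 540 and 485 CPM, and in late cells 192 and 257 CPM against 479 and 511 CPM. In the early cells alone 19 of the 20 mitosis genes and 15 of 20 S phase genes were called lower, with medians of -1.45 and -1.22, and 0 and 1 were called higher. Of all 9577 genes tested there, 651 were called lower and 1029 higher. In the late cells 8 mitosis genes were lower and 2 higher, with a median of -0.33, and 2 S phase genes were lower and 6 higher, with a median of 0.07. Of all 9878 genes tested there, 1120 were called lower and 1661 higher. The contrast between early and late cells was not itself tested. Of thinned cells 12.8% and 17.6% carried a Mki67 UMI after stroke in aged and young marrow, against 35.6% and 41.4% at steady state. The neutrophil lineage, whose precursors divide too, had 14.9% and 15.3% after stroke, against 35.8% and 39.1% at steady state. In Kit+ Mpo+ progenitors Mki67 had 92.5 and 70.1 CPM after stroke against 298 and 312 CPM at steady state, and its stroke difference was 0.49 less negative in erythroid cells (adjusted p = 0.000367). DESeq2's Wald test called 4 mitosis genes lower, against 178 lower of all 19663 genes. With cells thinned to 2000 UMIs 4 were called lower, against 153 lower of all 6858 genes. Ribosomal protein genes were higher, 31 of 32 against 16.5% of all genes, with a median of 0.96, and 0.46 in Kit+ Mpo+ progenitors, in the libraries in which Rpl15 and ribosomal pseudogenes also stood apart. In CPM their median log2 ratio in erythroid progenitors was 0.40 in aged and 0.38 in young cells. Interferon-stimulated genes had 0 higher and 5 lower of 20, against 16.5% and 11.2% of all genes.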

How the data were processed

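Marrow and blood cells were profiled with the 10x Genomics Chromium 3′ v3.1 kit, per the labels' protocols. What the authors deposited is a single matrix of raw counts (UMIs) for 23016 genes in 28055 barcodes of 6 libraries, with no cell annotation. Per the submitters' processing notes, Cell Ranger 3.0.2, STAR 2.5.3a, featureCounts 1.6.4, Subread and UMI-tools were used with GRCm38 (mm10). The notes do not say which step each tool served.

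The 4 marrow libraries were filtered at 500 UMIs and 10% mitochondrial UMIs. Counts of the selected cells were summed per library and tested with edgeR 4.0.16 (R 4.3.3): quasi-likelihood fit, TMM scaling, filterByExpr, terms for age and stroke, Benjamini-Hochberg adjustment over all genes tested. The comparison with Kit+ Mpo+ progenitors used interaction terms over 8 sums. Pairs of libraries were compared by CPM ratios of genes with at least 30 UMIs, with exact conditional binomial intervals and no test, since each group is 1 library. Shares have exact Clopper-Pearson intervals, and a share of 0 has the limit that 3 counts allow. All intervals cover counting error only. Doublets were scored with scanpy 1.11.5 (Scrublet), which marked between 0.904% and 3.12% of cells, and were kept in the main fit. DESeq2 1.42.0 served as an alternative. Only the age term of the additive edgeR fit was tested on simulated counts. The table holds no column that could not be mapped to a library.

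Named genes are the 20 leading ones (at least 100 CPM in every library, by the smallest ratio over other cells), up to 10 called genes per direction with at least 20 CPM on average and the same sign in both pairs, up to 8 per direction in each pair, and the erythroid lists. The genes named from the glucocorticoid-responsive list, and Mki67, lie outside this rule. Of 360 listed genes 6 had no row. Members and lists were chosen with earlier results of these data known. Coordinates and promoters are RefSeq, GRCm38.p6.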

Additional observations from a re-analysis of the deposited data

Results flagged for a closer look

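Several genes of the erythroid progenitors were higher in aged than in young cells in one setting and lower in the other, with counting intervals that leave out 0 on both sides. Each rests on 1 pair of libraries a setting, and the difference between settings was not tested. As log2 ratios of CPM, aged over young, the neutrophil genes S100a8 and S100a9 had 0.63 and 0.57 after stroke, against -0.54 and -0.55 at steady state, and Camp and Ngp had 1.17 and 0.61 after stroke, against -0.40 and -0.31 at steady state. The rule itself caps Camp and Ngp. Lyz2 and Fn1, genes of monocytes and macrophages, ran the other way, with -1.06 and -1.97 after stroke, against 0.66 and 1.51 at steady state, and Fn1 after stroke rests on 4 UMIs in aged and 11 in young cells. The progenitor transcription factors Myb and Sox4 had 0.24 and 0.34 after stroke, against -0.12 and -0.35 at steady state. Mcm2, a helicase subunit of S phase, had -0.35 after stroke, against 0.15 at steady state, and Ube2c, a ubiquitin enzyme of mitosis, had 0.41 after stroke, against -0.28 at steady state.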

How the results depend on the processing

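No paired analysis was possible because each group is 1 library with no replicate numbers shared beyond 1. The fit calls 23 genes for age. The count was 108 with DESeq2's size factors, 131 with no filter on low counts, 109 without cells of a doublet score above 0.25 and 67 at a mitochondrial share of at most 5%, each time with all 23 genes among them. It was 13 with DESeq2's Wald test, 10 (9 shared) with a floor of 2 UMIs and 15 (12 shared) with cells thinned to 2000 UMIs. Of settings added after the data were seen, it was 47 (21 shared) without cells holding Prss34 or Mcpt8 UMIs and 103 (all 23 shared) without the 5 cells a library richest in haemoglobin. The cause of these shifts was not tested. The stroke count of 3125 was 951 with the Wald test, 654 after thinning and 1680 in early cells alone. Against 11289 genes in the main fit, 19663 were tested by the Wald test, 6858 after thinning and 9577 in early cells. The stroke difference of Fn1 was 0.30 with a floor of 2 UMIs, against -3.24. At least 2-fold different for age after stroke were 1124 genes by the mean over cells, against 281. For stroke, TMM-scaled totals gave 1604 genes in young cells, against 2724, and 1451 in aged cells, against 2651. Thinning lowered the shares to 3.64%, 3.38%, 5.86% and 5.62%, and a floor of 2 UMIs gave 8.36% in aged steady-state marrow.

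Depth limits the early and late comparison in stroke marrow, where 34 young cells were early, and no setting adds animals to the 1 library per group.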

Other observations

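Metabolic and protein-handling genes of the erythroid progenitors also set them apart from Kit+ Mpo+ progenitors after stroke. Of 16 ribosome biogenesis genes, all 16 had a lower stroke difference in erythroid cells, against 12% of all genes lower and 6.99% higher in that comparison, with a median of -0.90. They summed to 6395 and 6367 CPM in aged and young stroke cells against 9774 and 9887 CPM in aged and young steady-state cells, whereas in Kit+ Mpo+ progenitors they summed to 9435 and 8202 CPM against 7126 and 6600 CPM. Of 16 heat shock and unfolded protein genes 12 had a lower stroke difference and 0 a higher one, with a median of -0.67. Of 16 glycolysis genes 8 had a lower one and 0 a higher one, with a median of -0.56. The fit over erythroid cells alone called 3 ribosome biogenesis genes higher and 5 lower, against 16.5% and 11.2% of all genes. These lists are descriptive, and the limits of the library contrast and of the deeper Kit+ Mpo+ progenitors after stroke hold here too.

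Among single pairs at steady state, Hspa1b had 40 UMIs in aged against 0 in young cells, and after stroke Acp5 had 10 UMIs in aged against 57 in young cells. In young stroke marrow 1 cell held 36.8% of those 57 UMIs. Pdcd1 had 48 UMIs in aged stroke against 0 in aged steady-state cells.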
